A study of Homo sapiens with 12 samples.

Results

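A set of 52 genes of DNA repair and of the DNA damage checkpoint was followed in HT144 melanoma cells in which CITED1 had been silenced. The genes were given as a list of symbols, drawn up with earlier results of these data known, and cover homologous recombination, the Fanconi anaemia pathway, end joining, the checkpoint, nucleotide and base excision, and mismatch repair. On the array 48 of the 52 symbols had a probe, 84 probes in all, among 20045 genes read by 30105 named probes. BRCA2, RBBP8, FANCA and FANCD2 were matched to no probe and were not analysed here. Of the 48 genes 27 were read by 1 probe and 21 by 2 to 4 probes, whose mean was used.

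HT144 is an established human melanoma line. Its cells received, with Lipofectamine2000, a negative control siRNA (siNEG) or 1 of 2 siRNAs against CITED1, #1 siCITED1 and #3 siCITED1, called #1 and #3 from here on, and RNA was taken 48 h later. Each of the 3 groups held 4 Illumina HT-12 arrays, 12 in all, and all groups share the line, the reagent and the time point. The arrays of a group came from separate wells plated on 1 day from 1 passage, so p-values measure the spread between wells, not between experiments.

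Homologous recombination copies an intact sister strand into a broken one, and the Fanconi anaemia pathway hands crosslinked DNA over to it. Both work mainly in S and G2 phase, and many of their genes are transcribed as cells enter S phase, whereas end joining rejoins ends throughout the cycle. Nucleotide excision repair removes the helix-distorting lesions made by ultraviolet light, the mutagen most tied to melanoma. BRCA1 and BARD1 form a ubiquitin ligase at breaks, and ATR with its effector kinase CHEK1 halts the cycle when replication forks stall.

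The deposited log2 values had been centred by probe and by array, so a value is a distance from the gene's mean over the 12 arrays and shows no absolute level. The same limit keeps the melanocyte markers from showing whether the cells express them. Array medians lay between -0.0038 and -0.000379, and siNEG replicate 1 stood apart on the third principal component, with a score of 21.9 against -9.56 to 5.88 for the others. CITED1, a transcriptional co-activator and the silenced gene, was the check of the labels. Its value was 0.44, 0.35, 0.54 and 0.53 in siNEG replicates 1 to 4, -0.14, -0.19, -0.13 and -0.25 with #1, and -0.20, -0.33, -0.28 and -0.34 with #3. All 8 siCITED1 values were lower than all 4 siNEG values (exact permutation p = 0.0286 for either siRNA, two-sided, the smallest that 4 against 4 arrays can give). It was 1.56-fold lower with #1 and 1.68-fold lower with #3, and #1 minus #3 was 0.11 log2 (95% interval from -0.0095 to 0.22, limma adjusted p = 0.275).

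With #1, repair genes fell across several pathways, and with #3 few did. BRCA1 and FANCG fell with both siRNAs, and ERCC5, the nuclease that cuts on the 3′ side of a bulky lesion, rose with both. With #1 16 of the 48 genes fell and 1 rose, at limma adjusted p under 0.05 over all 20045 genes. Falling members were 33.3%, against 5.02% of all genes, of which 4.82% rose and 9.84% passed in either direction. With #3 2 members fell and 1 rose, 4.17% falling, against 1.91% falling, 2.44% rising and 4.35% passing of all genes. With all 8 siCITED1 arrays set against siNEG 4 fell and 1 rose, 8.33% falling, against 0.868% falling, 1.05% rising and 1.92% passing of all genes. The median over the 48 genes was -0.09 log2 with #1, -0.04 with #3 and -0.08 for all siCITED1 arrays, where the median of all genes was 0.0031, 0.0015 and 0.0030.

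The siRNAs differed from each other in 11 of the 48 genes, 10 of them lower with #1 than with #3 (20.8%, against 6.28% of all genes) and 1 higher (6.09% of all genes were, and 12.4% passed). These comparisons share arrays, so they are not independent of each other. In the pooled comparison the 2 siRNAs form 1 group, and what separates them adds to its spread. When the average of both siRNA contrasts was taken from the model with 3 groups, 13 members passed instead of 5. Those gained were BARD1, RAD51AP1, RAD51C, FANCI, CHEK1, TOPBP1, XRCC1 and MSH6, and none passed with #3 by the gene's mean. With #3 CHEK1, RAD51AP1 and TOPBP1 gave 0.0046, 0.03 and -0.02, and the other gained members gave between -0.21 and -0.14. The 13 are therefore not a count of genes that moved with both siRNAs.

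**Figure D1:**
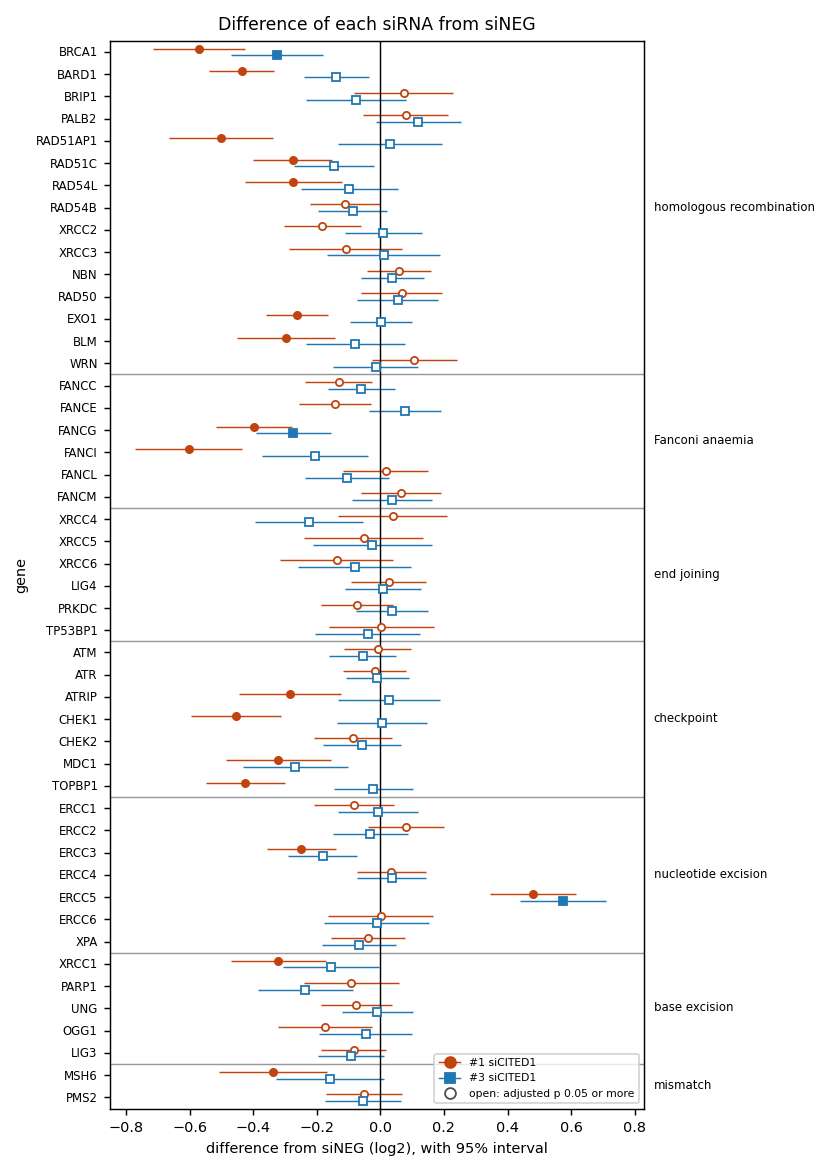
Difference of #1 siCITED1 (circles) and of #3 siCITED1 (squares) from siNEG for the 48 genes, in log2 units with 95% intervals, ordered by pathway; filled symbols passed limma's adjusted p of 0.05. With #1 16 genes are filled to the left of 0, with #3 2, and ERCC5 lies to the right with both.

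The promoters of 5 genes are shown because these genes stand for the patterns described below: BRCA1 and FANCG fell with both siRNAs, RAD51AP1 and TOPBP1 fell with #1 and differed between the siRNAs, and ERCC5 rose. Each is the RefSeq window from 250 bases before to 50 after an annotated start in GRCh38.p14, read 5′ to 3′ on the gene's strand. BRCA1 lies at chr17:43125315-43125614 on the minus strand (1 of 2 listed starts), RAD51AP1 at chr12:4538640-4538939 on the plus strand, FANCG at chr9:35079893-35080192 on the minus strand, TOPBP1 at chr3:133661892-133662191 on the minus strand and ERCC5 at chr13:102845782-102846081 on the plus strand. Capitals mark the core of the site of E2F factors, which drive genes of DNA synthesis, on either strand. The core was searched as TTCCCGC, as its variant TTCGCGC, and as the forms TTGCCGC and also TTGGCGC.
BRCA1: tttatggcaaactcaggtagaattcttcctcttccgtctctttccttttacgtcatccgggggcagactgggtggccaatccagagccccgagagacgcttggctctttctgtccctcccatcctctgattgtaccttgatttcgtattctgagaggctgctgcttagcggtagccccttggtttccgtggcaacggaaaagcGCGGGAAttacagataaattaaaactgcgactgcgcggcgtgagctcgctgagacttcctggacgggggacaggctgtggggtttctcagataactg
RAD51AP1: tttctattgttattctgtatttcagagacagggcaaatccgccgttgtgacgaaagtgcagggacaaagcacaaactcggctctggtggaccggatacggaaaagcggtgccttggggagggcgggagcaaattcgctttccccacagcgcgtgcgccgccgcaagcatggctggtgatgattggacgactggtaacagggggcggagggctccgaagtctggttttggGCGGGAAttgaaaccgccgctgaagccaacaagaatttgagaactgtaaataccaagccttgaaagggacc
FANCG: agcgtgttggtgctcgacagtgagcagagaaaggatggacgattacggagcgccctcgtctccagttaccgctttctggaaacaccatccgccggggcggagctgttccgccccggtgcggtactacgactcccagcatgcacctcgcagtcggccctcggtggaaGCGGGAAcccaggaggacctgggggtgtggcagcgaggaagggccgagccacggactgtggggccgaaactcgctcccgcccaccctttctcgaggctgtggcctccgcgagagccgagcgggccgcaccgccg
TOPBP1: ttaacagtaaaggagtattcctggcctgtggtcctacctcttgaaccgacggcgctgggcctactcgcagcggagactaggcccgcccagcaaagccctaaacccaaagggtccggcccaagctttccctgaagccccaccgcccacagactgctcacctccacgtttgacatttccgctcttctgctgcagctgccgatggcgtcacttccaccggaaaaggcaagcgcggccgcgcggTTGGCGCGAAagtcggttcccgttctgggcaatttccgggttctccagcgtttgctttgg
ERCC5: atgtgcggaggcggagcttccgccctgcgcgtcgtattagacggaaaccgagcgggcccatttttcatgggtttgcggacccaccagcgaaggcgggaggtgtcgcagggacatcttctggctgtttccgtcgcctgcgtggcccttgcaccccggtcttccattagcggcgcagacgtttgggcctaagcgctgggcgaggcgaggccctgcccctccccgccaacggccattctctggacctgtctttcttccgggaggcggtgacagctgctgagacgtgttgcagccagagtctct

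The core began at -47 from the start in BRCA1, -21 in RAD51AP1 and -84 in FANCG, as GCGGGAA each time. Of the 2 BRCA1 windows only the 1 shown held it. In TOPBP1 overlapping copies began at -10 and -7, and the ERCC5 window held none. Windows were matched for 42 of the 48 genes, 63 windows in all. RAD54B, NBN, WRN, FANCI, XRCC5 and PRKDC were not matched. A core was found in 49.2% of the members' windows, against 13.0% of all 35116 windows and 16.1% of those of genes on the array, whose mean GC content was 60.9% against 64.2% for the members. It was found in 12 of the 15 matched genes that fell with #1 and in 12 of the other 27. RAD51C, ATRIP and CHEK1 fell with #1 and held no core in any window.

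This core was not the motif first searched. The first search covered 4 motifs on both strands, and the core was added after its outcome and the sequences above had been seen, because the same letters recurred in them. The longer E2F site (each core with 1 more T before its first letter) had not set the falling genes apart. It was found in 3 of 25 windows of genes that fell with #1 and in 6 of 38 of the other members. Of all windows 3.31% held it, and of those of genes on the array 4.09%. The CHR element of mitotic genes (TTTGAA or TTCGAA) was found in 8.0% and 15.8%, against 16.4% of all and 13.9% for genes on the array. CACGTG and CATGTG, both E-boxes that MITF can bind, were each found in 0 of 25 windows of genes that fell with #1. Each was found in 13.2% of the windows of the other members. Of all windows 7.26% and 11.1% held them, and of those of genes on the array 8.33% and 8.89%. No test was made of any of these shares. A motif chosen on these windows cannot be tested on them, several windows of 1 gene overlap, and a match is a string of letters, not a bound site.

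Homologous recombination, the largest pathway here, held the most falling members by count. By share the checkpoint held more with #1, 57.1% against 46.7%. With #1 7 of the 15 measured recombination genes fell and 0 rose, where 5.02% of all genes fell and 4.82% rose. With #3 BRCA1 was the 1 gene whose mean over probes fell (6.67%, against 1.91% of all genes). Between the siRNAs 5 were lower with #1 (33.3%, against 6.28% of all genes). BRCA1 (chromosome 17, 2 probes) had values of 0.44, 0.21, 0.24 and 0.31 in siNEG, -0.29, -0.39, -0.16 and -0.26 with #1, and -0.06, 0.14, -0.14 and -0.04 with #3. The groups were ordered siNEG, #3, #1 with no overlap between any of them. For BRCA1 #1 gave a 1.49-fold fall (-0.57 ± 0.07 log2, SE of 4 against 4 arrays, limma adjusted p = 2.35e-05). The fall with #3 was 1.25-fold (-0.32 ± 0.07, adjusted p = 0.00979), folds taking the values as log2. With #3 1 of its probes passed alone (-0.36, adjusted p = 0.00293) and the other did not (-0.28, adjusted p = 0.0791), while with #1 both did. The further fall with #1 than with #3 was -0.25 ± 0.07 (adjusted p = 0.0238). That call was lost without #1 replicate 1 or 2 or without #3 replicate 2 (adjusted p = 0.0534, 0.0825 and 0.0838). The BRCA1 probe ILMN_2311089 did not pass alone between the siRNAs (-0.19, adjusted p = 0.11).

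BARD1, the partner of BRCA1, fell with #1 and lay between the groups with #3. Its values were 0.14, 0.19, 0.27 and 0.16 in siNEG, -0.23, -0.21, -0.33 and -0.21 with #1, and 0.02, 0.06, 0.11 and 0.03 with #3. All 3 groups were separate, as for BRCA1. It fell by 0.44 ± 0.05 with #1 (limma adjusted p = 1.06e-05). With #3 the change was -0.14 ± 0.05 (adjusted p = 0.143), and #1 minus #3, -0.30 ± 0.05, passed (adjusted p = 0.000414).

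RAD51AP1 and EXO1 fell with #1 and stood at siNEG's level with #3. RAD51AP1 stimulates the pairing of strands during recombination. It gave 0.18, -0.02, 0.23 and 0.24 in siNEG, -0.57, -0.13, -0.34 and -0.34 with #1, and 0.17, 0.18, 0.20 and 0.20 with #3. The #1 arrays lay below all others, and the #3 arrays lay within the range of siNEG. The change was -0.50 ± 0.08 with #1 (1.42-fold, limma adjusted p = 0.000293) and 0.03 ± 0.08 with #3 (95% interval from -0.13 to 0.19), and #1 minus #3 was -0.53 ± 0.08 (adjusted p = 0.000149). EXO1, a nuclease that resects broken ends and also serves mismatch repair, gave 0.03, 0.05, 0.10 and 0.16 in siNEG, -0.14, -0.18, -0.24 and -0.13 with #1, and 0.07, 0.08, 0.09 and 0.11 with #3. Again only the #1 arrays stood apart, at -0.26 ± 0.05 (adjusted p = 0.00111), and #1 minus #3 was -0.26 ± 0.05 (adjusted p = 0.00087). Of its 3 probes ILMN_1719089 did not show it (-0.04 with #1, adjusted p = 0.883).

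The other 3 genes that fell with #1 did not pass between the siRNAs with all arrays and all probes. RAD51C, which acts in recombination at breaks and stalled forks, fell by 0.28 ± 0.06 (limma adjusted p = 0.00514) with its #1 arrays below all siNEG arrays. Its probes disagreed, at -0.57, -0.37 and -0.31 for 3 of them and 0.14 for ILMN_1667644 (adjusted p = 0.369). The probe with the deepest fall, ILMN_1695386, also passed alone with #3 (-0.30, adjusted p = 0.0217), pooled (-0.44, adjusted p = 0.014) and between the siRNAs (-0.27, adjusted p = 0.017), where the gene's mean did not (-0.15, -0.21 and -0.13). BLM, the helicase lost in Bloom syndrome, fell by 0.30 ± 0.07 (adjusted p = 0.0135), with siNEG replicate 1 at -0.06 inside the range of #1, from -0.29 to -0.05. Between the siRNAs BLM gave -0.22 (adjusted p = 0.0627), which passed without siNEG replicate 1, #1 replicate 2 or #3 replicate 1 (adjusted p = 0.029, 0.0398 and 0.0494), and with the replicate block (0.0277). RAD54L, a translocase that moves along double-stranded DNA, fell by 0.27 ± 0.07 (adjusted p = 0.0213), with siNEG replicate 3 inside the #1 range, from -0.35 to 0.04. The RAD54L call was lost without siNEG replicate 1, 2 or 4 or without #1 replicate 2 or 4 (adjusted p between 0.0503 and 0.0735), and without #1 replicate 1 RAD54L passed between the siRNAs (-0.24, adjusted p = 0.0338).

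XRCC2, which works in a complex of recombination factors, was lower with #1 than with #3 (-0.19 ± 0.06, limma adjusted p = 0.0354) and did not pass against siNEG (-0.18 with #1, adjusted p = 0.0535). Leaving out any #1 array, or #3 replicate 1, 2 or 4, ended the call between the siRNAs (adjusted p between 0.0551 and 0.107). Neither XRCC2 probe passed alone between the siRNAs (adjusted p = 0.243 and 0.0555). Without siNEG replicate 4 XRCC2 passed with #1 against siNEG (-0.23, adjusted p = 0.0166). The 7 members that passed in no comparison were BRIP1, PALB2, RAD54B, XRCC3, NBN, RAD50 and WRN, with differences between -0.11 and 0.11 with #1 and between -0.09 and 0.12 with #3. NBN and RAD50, subunits of the complex that first senses a break, gave 0.06 and 0.07 with #1.

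**Figure D2:**
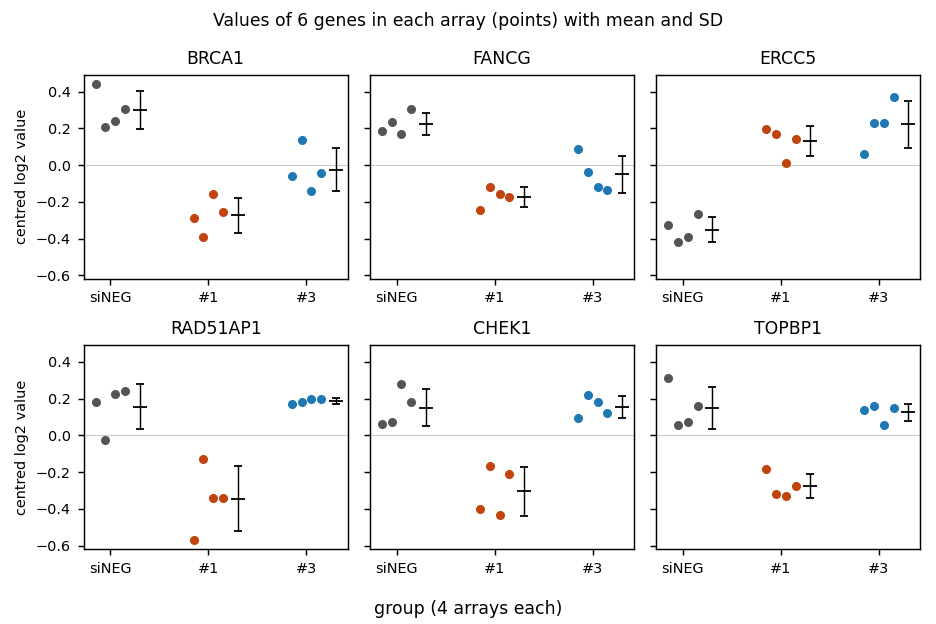
Centred log2 values of BRCA1, FANCG, ERCC5, RAD51AP1, CHEK1 and TOPBP1 in each of the 4 arrays of siNEG, #1 siCITED1 and #3 siCITED1 (points), with the mean and SD of each group beside them. In the upper row both siRNA groups lie off siNEG, and in the lower row the #1 arrays lie below both other groups.

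In the Fanconi anaemia pathway 2 of 6 measured genes fell with #1, 1 of them with #3, and 0 rose. The falling shares were 33.3% and 16.7%, against 5.02% and 1.91% of all genes. FANCG (chromosome 9), a subunit of the core ligase, gave 0.19, 0.23, 0.17 and 0.31 in siNEG, -0.25, -0.12, -0.16 and -0.17 with #1, and 0.09, -0.04, -0.12 and -0.13 with #3. Both siRNA groups lay wholly below siNEG. Its fall was 1.32-fold with #1 (-0.40 ± 0.06 log2, limma adjusted p = 0.000126) and 1.21-fold with #3 (-0.27 ± 0.06, adjusted p = 0.00764). Over all 8 siCITED1 arrays it was 1.26-fold (-0.34 ± 0.05, adjusted p = 0.00506). The difference between the siRNAs was -0.12 (95% interval from -0.24 to -0.0050) and did not pass over all genes (adjusted p = 0.199).

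FANCI, which FANCL ubiquitinates together with FANCD2 at a crosslink, had the largest fall of the 48 genes with #1. It gave 0.45, 0.32, -0.0076 and 0.32 in siNEG, -0.29, -0.38, -0.28 and -0.39 with #1, and 0.18, 0.09, 0.03 and -0.05 with #3. The #1 arrays lay below all others, and siNEG replicate 3 lay at the level of #3. The fall with #1 was -0.60 ± 0.08, or 1.52-fold (limma adjusted p = 6.05e-05), and #1 minus #3 was -0.40 ± 0.08 (adjusted p = 0.00242). With #3 it gave -0.21 ± 0.08 (adjusted p = 0.197), which passed without siNEG replicate 3 (-0.30, adjusted p = 0.0121).

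FANCE, which links the core ligase to FANCD2, did not pass against siNEG, and was lower with #1 than with #3 by 0.22 ± 0.05 (limma adjusted p = 0.0111). Its #1 arrays lay from -0.16 to -0.08 and its #3 arrays from 0.04 to 0.17, on either side of siNEG (-0.07 to 0.14), which overlapped #3 only. FANCC, a further core subunit, and FANCM, the translocase that brings the core to DNA, gave -0.13 and 0.06 with #1. FANCL, the catalytic subunit, gave 0.02, but its 2 probes differed between the siRNAs, at 0.34 for ILMN_1754045 (#1 minus #3, adjusted p = 0.0179) and -0.10 for the other (adjusted p = 0.54).

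**Figure D3:**
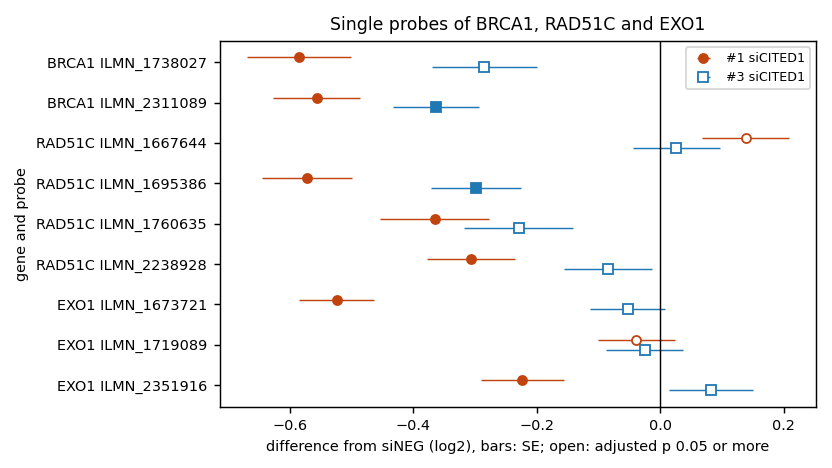
Difference from siNEG of each single probe of BRCA1, RAD51C and EXO1, in log2 units with SE, for #1 siCITED1 (circles) and #3 siCITED1 (squares); filled symbols passed an adjusted p of 0.05 over all probes. A RAD51C probe (0.14 with #1) and an EXO1 probe (-0.04) lie apart from the others of their gene.

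End joining showed 0 of 6 genes called by limma against siNEG, with either siRNA or in the pooled comparison. Of all genes 9.84% passed with #1, 4.35% with #3 and 1.92% pooled, so 0 of 6 does not set end joining apart from them. At an unadjusted p under 0.05 there were 0 with #1, 0 pooled and 1 with #3. The gene at that level with #3 was XRCC4 (-0.22, adjusted p = 0.16), which passed without siNEG replicate 1 (-0.31, adjusted p = 0.0112). The Ku subunits XRCC5 and XRCC6, which cap broken ends, gave -0.05 and -0.14 with #1, the kinase PRKDC gave -0.08, the ligase LIG4 gave 0.03 and TP53BP1, which shields ends from resection, gave 0.0032. The 95% interval with #1 reached -0.32 at its lowest, for XRCC6, and 0.21 at its highest, for XRCC4. XRCC4, the scaffold of LIG4, was the exception between the siRNAs. It gave -0.20, 0.14, 0.30 and 0.01 in siNEG, 0.11, 0.02, 0.18 and 0.10 with #1, and -0.06, -0.18, -0.23 and -0.17 with #3, so siNEG overlapped both other groups while #1 and #3 did not overlap. The difference of 0.26 ± 0.08 between the siRNAs passed (adjusted p = 0.0418) and was lost without siNEG replicate 4, without #1 replicate 1, 3 or 4 or without #3 replicate 2, 3 or 4 (adjusted p between 0.0509 and 0.117).

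Of the 7 checkpoint genes 4 fell with #1, 0 with #3, and 3 were lower with #1 than with #3. Of all genes 5.02% fell with #1, 1.91% fell with #3 and 6.28% were lower with #1 than with #3. The 4 that fell were factors of the ATR branch, CHEK1, TOPBP1 and ATRIP, and MDC1. CHEK1, the kinase that ATR activates, gave 0.06, 0.07, 0.28 and 0.18 in siNEG, -0.40, -0.17, -0.44 and -0.21 with #1, and 0.09, 0.22, 0.18 and 0.12 with #3. The #1 arrays lay below all others, while siNEG and #3 overlapped throughout. CHEK1 was 1.37-fold lower with #1 (-0.45 ± 0.07 log2, limma adjusted p = 0.000208), gave 0.0046 with #3 (95% interval from -0.14 to 0.15), and differed between the siRNAs by -0.46 ± 0.07 (adjusted p = 0.000164).

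TOPBP1, which activates ATR at a stalled fork, behaved alike. Its values were 0.31, 0.06, 0.07 and 0.16 in siNEG, -0.18, -0.32, -0.33 and -0.27 with #1, and 0.14, 0.16, 0.06 and 0.15 with #3. It fell by 0.43 ± 0.06 with #1 (limma adjusted p = 0.000101), gave -0.02 with #3 (95% interval from -0.15 to 0.10), and #1 minus #3 was -0.40 ± 0.06 (adjusted p = 0.000158). ATRIP, which carries ATR to single-stranded DNA, gave 0.32, -0.01, -0.04 and 0.07 in siNEG, -0.16, -0.37, -0.05 and -0.22 with #1, and 0.06, 0.17, 0.09 and 0.12 with #3. The lowest siNEG array lay just above the highest #1 array. Its fall of 0.28 ± 0.08 with #1 (adjusted p = 0.0233) was lost without siNEG replicate 1 or #1 replicate 2 or 4 (adjusted p = 0.0678, 0.0841 and 0.0591), and #1 minus #3 was -0.31 ± 0.08 (adjusted p = 0.0111). Of its 2 probes ILMN_2370464 passed neither with #1 (-0.27, adjusted p = 0.108) nor between the siRNAs (-0.23, adjusted p = 0.179).

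MDC1, the scaffold that binds phosphorylated H2AX, was the checkpoint gene that passed in the pooled comparison. It gave 0.17, 0.37, -0.0023 and 0.24 in siNEG, -0.28, -0.20, -0.0030 and -0.012 with #1, and -0.05, 0.02, -0.13 and -0.13 with #3. siNEG replicate 3 lay at the level of the highest siCITED1 arrays. MDC1 fell by 0.32 ± 0.08 with #1 (limma adjusted p = 0.0125), while with #3 its change of -0.27 ± 0.08 did not pass (adjusted p = 0.0658). The change with #3 passed without siNEG replicate 3 (-0.33, adjusted p = 0.0198) and in the more variable part of the genes (adjusted p = 0.036). The pooled call (-0.29 ± 0.07, adjusted p = 0.0436) was lost without siNEG replicate 1, 2 or 4, #1 replicate 1, 2 or 4, or #3 replicate 1, 3 or 4 (adjusted p between 0.0522 and 0.174). The kinases ATM, ATR and CHEK2 did not pass in any comparison and gave -0.0089, -0.018 and -0.09 with #1.

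**Figure D4:**
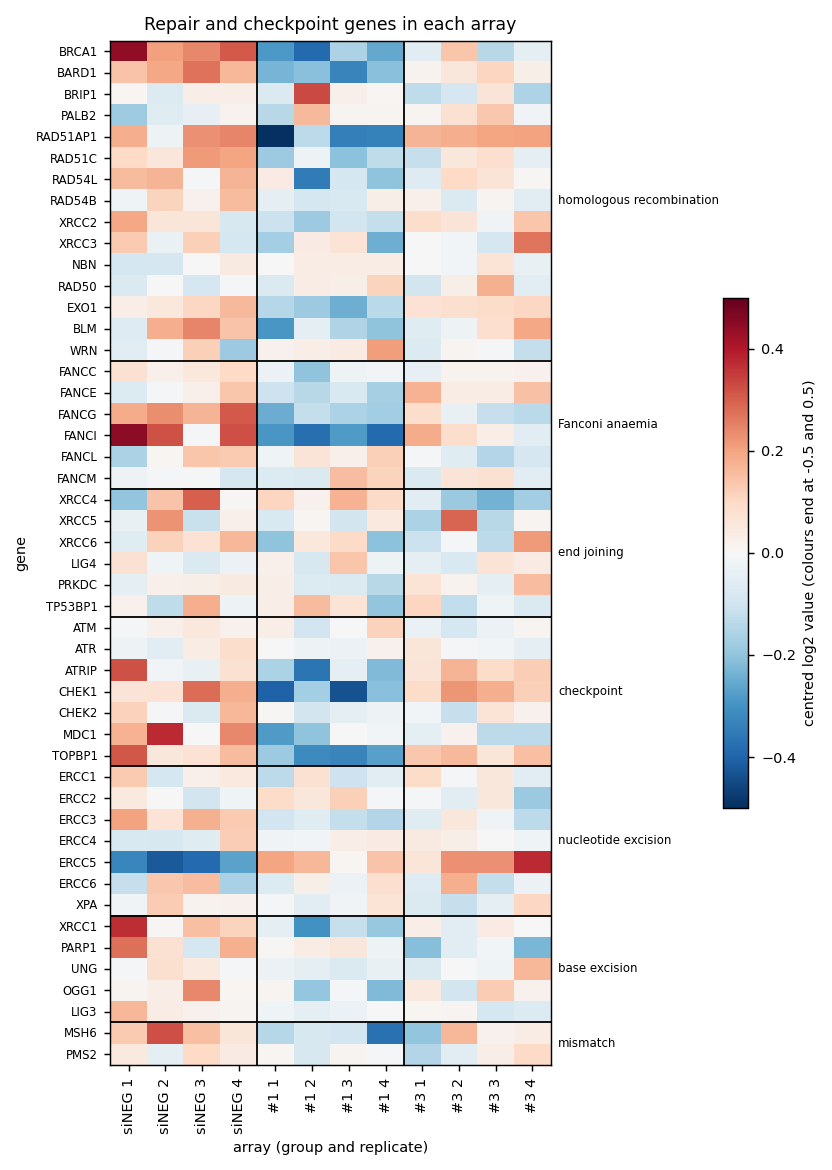
Centred log2 value of each of the 48 genes (rows, by pathway) in each of the 12 arrays (columns, by group and replicate), red above and blue below the gene's own mean, with colours ending at -0.5 and 0.5. The #1 siCITED1 columns are blue for BARD1, EXO1, FANCI, CHEK1 and TOPBP1, and ERCC5 is blue in the siNEG columns.

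Nucleotide excision repair held the only member that rose and 1 that fell among 7. Of all genes 4.82% rose and 5.02% fell with #1. ERCC5 (chromosome 13, 1 probe), also called XPG, gave -0.33, -0.42, -0.39 and -0.27 in siNEG, 0.20, 0.17, 0.01 and 0.14 with #1, and 0.06, 0.23, 0.23 and 0.37 with #3. All 8 siCITED1 arrays lay above all siNEG arrays. The rise was 1.4-fold with #1 (0.48 ± 0.06 log2, limma adjusted p = 7.46e-05). With #3 it was 1.49-fold (0.57 ± 0.06, adjusted p = 3.71e-05). The difference between the siRNAs was -0.09 (95% interval from -0.23 to 0.04).

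ERCC3, a helicase of TFIIH that opens DNA at a lesion and at promoters, fell. It gave 0.20, 0.07, 0.18 and 0.13 in siNEG, -0.10, -0.06, -0.12 and -0.15 with #1, and -0.06, 0.06, -0.02 and -0.13 with #3. No siCITED1 array reached the siNEG range. The change was -0.25 ± 0.05 with #1 (limma adjusted p = 0.00361), -0.18 ± 0.05 with #3 (adjusted p = 0.0544) and -0.22 ± 0.04 pooled (adjusted p = 0.0213). The pooled call was lost without siNEG replicate 1, 3 or 4 (adjusted p = 0.0801, 0.0852 and 0.0694). With #3 ERCC3 passed without siNEG replicate 2 or #3 replicate 2 (both -0.21, adjusted p = 0.0485 and 0.0351). It also passed with #3 after another quantile normalization (-0.18, adjusted p = 0.0476). The others, the helicase ERCC2, the nuclease subunits ERCC1 and ERCC4, the transcription-coupled factor ERCC6 and the damage verifier XPA, gave between -0.08 and 0.08 with #1 and between -0.07 and 0.04 with #3, and 0 of these 5 passed.

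In base excision and single-strand break repair 1 of 5 genes fell with #1 and 0 with #3, where 5.02% and 1.91% of all genes fell. XRCC1, the scaffold of single-strand break repair, gave 0.37, 0.01, 0.15 and 0.11 in siNEG, -0.04, -0.30, -0.12 and -0.19 with #1, and 0.03, -0.06, 0.04 and -0.0039 with #3. The #1 arrays lay below all siNEG arrays, and siNEG replicate 1 was the highest. XRCC1 fell by 0.32 ± 0.07 with #1 (limma adjusted p = 0.00635), and #1 minus #3 was -0.17 ± 0.07 (adjusted p = 0.168). PARP1, which senses strand breaks, gave -0.24 ± 0.07 with #3 and -0.09 with #1 (adjusted p = 0.0736 and 0.553). The glycosylases UNG and OGG1 gave -0.08 and -0.17 with #1, and LIG3, the partner of XRCC1, gave -0.08, and none of these passed.

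Mismatch repair was read by MSH6 and PMS2. MSH6, which recognises single mispairs, gave 0.13, 0.32, 0.15 and 0.06 in siNEG, -0.14, -0.08, -0.09 and -0.37 with #1, and -0.20, 0.16, 0.02 and 0.04 with #3. It fell by 0.34 ± 0.08 with #1 (limma adjusted p = 0.0107), with no overlap, and the #3 arrays spread over both other groups (-0.16 ± 0.08, adjusted p = 0.386). PMS2, which nicks the strand to be replaced, gave -0.05 with either siRNA.

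Members whose arrays did not overlap between groups were counted as well. With #1 19 lay wholly below siNEG, where 6.61% of all genes did, and 1 lay above (6.5% of all genes, 13.1% on either side). With #3 6 lay below (4.04%) and 1 above (4.64%, 8.68% on either side). For all siCITED1 arrays 6 lay below (1.21%) and 1 above (1.37%, 2.58% on either side), and between the siRNAs 10 were lower with #1 (7.88%) and 2 higher (8.04%, 15.9% on either side). The 5 genes that separated from siNEG with #1 without passing limma were XRCC2, FANCC, FANCE, LIG3 and UNG, with differences between -0.18 and -0.08.

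Proliferation genes moved with the members in the same arrays. Of 25 S phase and replication genes, none of them a member, 20 fell with #1 and 4 with #3, and of 22 mitosis genes 20 and 3 fell. Between the siRNAs 15 and 18 were lower with #1. Of all genes 5.02% fell with #1, 1.91% fell with #3 and 6.28% were lower with #1 than with #3. The mean over the S phase list lay from 0.13 to 0.22 in the siNEG arrays, from -0.27 to -0.23 with #1 and from 0.05 to 0.07 with #3, and that over the mitosis list from 0.15 to 0.29, from -0.39 to -0.30 and from 0.03 to 0.11. Over the 15 recombination genes the mean lay from 0.05 to 0.10 in siNEG, from -0.15 to -0.06 with #1 and from -0.01 to 0.06 with #3. For the 6 Fanconi anaemia genes it lay from 0.06 to 0.15, from -0.14 to -0.06 and from -0.03 to 0.05. Over the 7 checkpoint genes it lay from 0.05 to 0.13, from -0.18 to -0.09 and from 0.03 to 0.05, and over the 6 end joining genes it overlapped among all groups (-0.04 to 0.07, -0.07 to 0.05 and -0.08 to 0.03). The part of proliferation in the members' falls was not tested, and in bulk RNA fewer cells in a phase and less RNA per cell cannot be told apart.

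**Figure D5:**
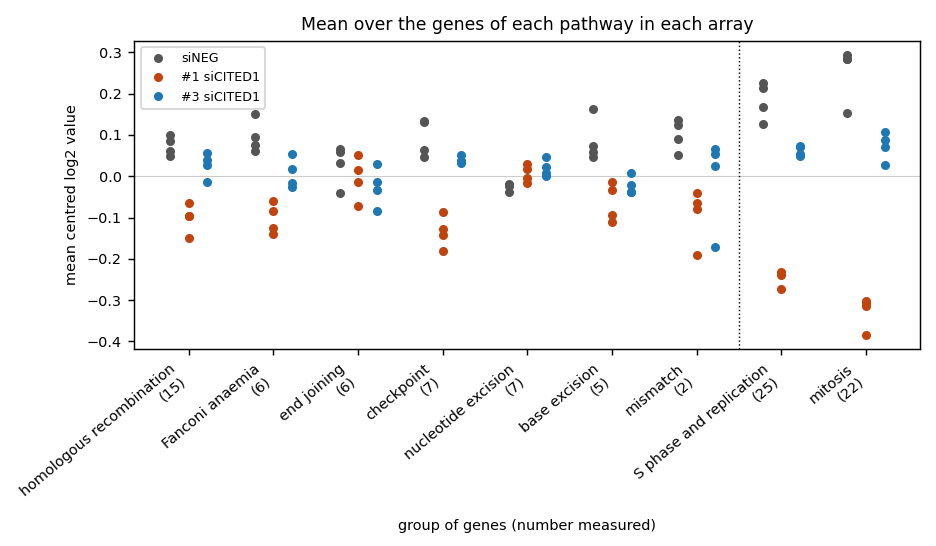
Mean centred log2 value over the measured genes of each pathway in each array (1 point per array, 4 per group), with the S phase and mitosis lists right of the dotted line. The #1 siCITED1 arrays lie below both other groups for homologous recombination, the Fanconi anaemia pathway, the checkpoint, S phase and mitosis, and overlap them for end joining.

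Of 12 p53 target genes 1, ZMAT3, rose with #1 and 2, ZMAT3 and PHLDA3, rose with #3, while 0 fell with either. Beside these and the marker counts that follow, 4.82% of all genes rose and 5.02% fell with #1. With #3 2.44% of all genes rose and 1.91% fell. Of 7 melanocyte lineage markers 5 rose with #1 and 3 with #3, with list means from -0.31 to -0.19 in siNEG, from 0.21 to 0.33 with #1 and from -0.12 to 0.01 with #3. Of 5 keratinocyte and 5 immune markers 0 passed against siNEG, and of 6 fibroblast markers 1, COL1A2, rose with #3. Centred values cannot show which of these markers are at background, and their part in the members' changes was not tested.

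Among 83 further repair genes with a probe, 13 fell and 2 rose with #1 (15.7% falling), where 5.02% of all genes fell and 4.82% rose. With #3 5 fell and 3 rose (6.02% falling), where 1.91% of all genes fell and 2.44% rose. In the pooled comparison 5 fell and 0 rose (6.02% falling), where 0.868% of all genes fell and 1.05% rose. TIMELESS and FEN1 fell with both siRNAs and further with #1. TIMELESS, which protects forks and aids CHEK1 activation, gave 0.24 to 0.32 in siNEG, -0.37 to -0.21 with #1 and -0.10 to 0.12 with #3, and fell by 0.59 ± 0.05 (limma adjusted p = 1.56e-06) and by 0.26 ± 0.05 (adjusted p = 0.0087). FEN1, the flap nuclease of base excision and of lagging strands, fell by 0.54 ± 0.05 and 0.22 ± 0.05 (adjusted p = 6.38e-07 and 0.00731). With #3 its probe ILMN_1755834 did not pass alone (-0.21, adjusted p = 0.106). The pooled calls of TIMELESS and FEN1 were lost without any 1 of the siNEG arrays (adjusted p between 0.0512 and 0.0814).

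PAXX, an accessory factor of end joining, was the end joining gene outside the 6 members that fell, by 0.30 ± 0.07 with #1, 0.33 ± 0.07 with #3 and 0.31 ± 0.06 pooled (limma adjusted p = 0.00584, 0.00631 and 0.0103). RMI2 and RMI1, which act with BLM on joined recombination intermediates, fell by 0.53 ± 0.05 and 0.28 ± 0.06 with #1 (adjusted p = 3.97e-06 and 0.00307), though 2 of the 3 RMI1 probes did not pass alone. UBE2T, the conjugating enzyme that serves FANCL, fell by 0.48 ± 0.09, H2AX, the histone marked at breaks, by 0.44 ± 0.07, and DDB2, the ultraviolet lesion sensor, by 0.26 ± 0.06 (adjusted p = 0.00244, 0.000491 and 0.0115). None of these 5 passed with #3, where they gave between -0.09 and 0.03.

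TDG, a glycosylase that excises mispaired thymine, moved in opposite directions. It gave 0.06 to 0.17 in siNEG, -0.48 to -0.40 with #1 and 0.22 to 0.40 with #3. It fell by 0.54 ± 0.05 with #1 and rose by 0.21 ± 0.05 with #3 (limma adjusted p = 1.68e-06 and 0.0191), and #1 minus #3 was -0.75 ± 0.05 (adjusted p = 4.73e-08). The rise with #3 was lost without #3 replicate 1, 2 or 3 (adjusted p between 0.0514 and 0.0666). It was also lost in the more variable part of the genes (adjusted p = 0.0586), and the TDG probe ILMN_1777096 did not pass alone (0.18, adjusted p = 0.332). The difference between the siRNAs passed under each alternative. CDC25A, the phosphatase that CHEK1 marks for destruction, rose with #3 (0.32 ± 0.05, adjusted p = 0.000551) and gave -0.16 with #1, where its call (adjusted p = 0.0431) was lost on most omissions of 1 array, up to adjusted p = 0.135. REV3L, the catalytic subunit of polymerase zeta, rose with #3 alone (0.36 ± 0.06, adjusted p = 0.00152), and #1 minus #3 was -0.36 ± 0.06 (adjusted p = 0.000491).

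Weaker calls among these genes were lost on leaving out single arrays or in single probes. PARP2, a relative of PARP1, fell by 0.34 ± 0.06 with #1 (limma adjusted p = 0.000456) and gave -0.21 with #3 and -0.28 pooled (adjusted p = 0.0403 and 0.018). With #1 the PARP2 call was kept on each omission of 1 array, but its probe ILMN_2354237 did not pass alone (-0.19, adjusted p = 0.146). RAD23B, which steadies the lesion sensor XPC, gave -0.21 with #1 and -0.20 pooled (adjusted p = 0.029 and 0.0435). SFR1, a recombination cofactor, gave -0.18 with #1, FAAP100, of the Fanconi core, 0.18 with #1, and REV1, a translesion polymerase, -0.25 with #3 (adjusted p = 0.0344, 0.0241 and 0.0332). The calls of RAD23B, SFR1, FAAP100 and REV1, and those of PARP2 pooled and with #3, were each lost on leaving out several single arrays. Besides FAAP100, SMUG1, a uracil glycosylase named outside the naming rule, was the other gene that rose with #1 (0.27 ± 0.05, adjusted p = 0.000976), and of 3 further mismatch repair genes 0 passed against siNEG.

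Between the siRNAs 13 of the 83 further genes were lower with #1 than with #3 (15.7%, against 6.28% of all genes) and 4 were higher. Of all genes 6.09% were higher, so the 4 were no larger a share than that. The 4 were GTF2H5, a small subunit of TFIIH (0.38 ± 0.11, limma adjusted p = 0.0365), ALKBH2, which reverses alkyl damage (0.31 ± 0.09, adjusted p = 0.0287), APTX, which clears failed ligation ends (0.18 ± 0.06, adjusted p = 0.0429), and SMUG1 (0.16 ± 0.05, adjusted p = 0.0342). GTF2H5, ALKBH2 and APTX did not pass against siNEG with either siRNA, are named outside the naming rule, and were not refitted under the alternatives.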

How the data were processed

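RNA from 12 HT144 wells was read on Illumina HT-12 arrays. Per the study's methods the authors quantile normalized the signals in BASE and centred them in MeV, and the deposited log2 values were used as they stand. Centring on probes and arrays removes brightness, so no filter on dim probes could be set, and the log base comes from the methods, not from the values.

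Of 47315 probes, 30105 had 1 gene symbol in the platform annotation. These were averaged to 20045 genes. 17202 probes had no entry and 8 had several symbols. limma 3.58.1 in R 4.3.3 (lmFit, eBayes) was fitted to all genes, with all siCITED1 arrays against siNEG in 1 model and each siRNA in a model of 3 groups. Tests were two-sided, with Benjamini-Hochberg adjustment over all genes and a threshold of 0.05. The study's own test, SAM, was not run here. The fit was tested on simulated data with 200 changed genes.

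Every member that passed in any comparison is named. Array values are given where it passed in more than 1 comparison or had the largest change of its pathway. Of the further repair genes, up to 3 per pathway with the largest change among those passing against siNEG, pooled or with either siRNA, were named. The members and lists were chosen with earlier results of these data known. Replicate numbers were checked for pairing and did not pair the arrays. Alternatives were another quantile normalization, 1 probe per gene, fits to probes, the more variable part of the genes, a replicate block and leaving out each array. The E2F core and the background of windows of measured genes were added after seeing the data.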

Additional observations from a re-analysis of the deposited data

Results flagged for a closer look

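The siRNAs differed from each other by limma over all genes (adjusted p under 0.05, #1 minus #3, log2) for 11 repair genes: BRCA1 at -0.2469, BARD1 at -0.2978, RAD51AP1 at -0.532, XRCC2 at -0.1921, EXO1 at -0.2632, FANCE at -0.2195, FANCI at -0.3966, XRCC4 at 0.2627, ATRIP at -0.3101, CHEK1 at -0.4584 and TOPBP1 at -0.4024. In 10 of them #1 was the lower.

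RAD54L in siNEG replicate 3 lay apart from its group, at -0.0045 against 0.1579 to 0.1713 in the other siNEG arrays. This was 1 of 60 groups of 4 arrays examined, where chance alone sets apart about 1 in 20.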

How the results depend on the processing

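The count of repair genes called over all siCITED1 arrays was 5, and it was 3 with the replicate block, 13 as the average of the siRNA contrasts, and 3 to 6 on leaving out 1 array (3 without siNEG replicate 1 or 4). With #1 it was 17 and 15 to 17 on leaving out 1 array, with #3 3 and 3 to 6 (6 without siNEG replicate 3), and between the siRNAs 11 and 8 to 12. The other settings kept these counts within 1.5 times. Over all genes the pooled count was 385, against 213 with the block and 174 without siNEG replicate 4. Same-numbered arrays did not deviate together (r from -0.0742 to 0.132 over 12 pairs, own number best in 3 of 12 arrays), so the numbers do not pair the arrays. A single RAD51C probe turned the direction with #1 (0.14, adjusted p = 0.369), and so did a single RMI1 probe between the siRNAs (0.0079, adjusted p = 0.98). The causes were not tested. CITED1 kept its call in each setting. The values show differences only, the number of arrays limits their precision, and wells of 1 experiment give no spread between experiments.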
